A study of Mus musculus with 12 samples.

Results

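The livers compared here came from mice that lacked the copper pump Atp7b and from heterozygous controls. They gave 8 libraries of whole-liver RNA, 4 from Atp7b-/- mice (KO 2, KO 4, KO 5 and KO 6) and 4 from Het mice (Het 1 to Het 4). All came from mice aged 20 wk on a mixed C57BL/6x129S6/SvEv background. The controls therefore also carry 1 knockout allele. The labels do not give the allele's design, the sex, the litter or the diet of these mice. The other 4 of the 12 libraries in the series, from knockouts given a drug that activates liver X receptors, were not compared. Of 24532 genes in the deposited table, 13366 had 10 or more counts in at least 4 of the 8 libraries and were tested.

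Atp7b is a P-type ATPase of hepatocytes. It loads copper onto ceruloplasmin in the secretory pathway and moves excess copper into bile, the main route by which the body loses this metal. When it is missing, copper builds up in the liver, which is the disorder known as Wilson disease. Free copper ions drive the formation of reactive oxygen species, and cells buffer them with metallothioneins and glutathione.

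Levels are CPM, counts per 1000000 counts on library sizes scaled by TMM (trimmed mean of M values), as mean ± SD over 4 libraries. Where 8 levels are given, the order is Het 1, 2, 3 and 4, then KO 2, 4, 5 and 6. A gene was called, and is said to have risen or fallen, at a Benjamini-Hochberg adjusted p under 0.05 in edgeR's quasi-likelihood test over all 13366 genes. Nothing in the labels says how the 8 animals relate to each other, so the p-values measure the spread between these libraries. In bulk tissue, fewer cells of a type and less RNA per cell cannot be told apart.

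Library totals were 19724743 to 25054822 counts in Het and 16535938 to 28329751 in KO. The number of genes with a count was 13858 to 14177 in Het and 16000 to 16430 in KO, with no overlap. Across genes, libraries of 1 group correlated at 0.953 to 0.978 and libraries of different groups at 0.871 to 0.903. Sex chromosome RNA was not alike across the KO libraries. Xist RNA, which females make to silence an X chromosome, reached 82.3 CPM in animal KO 5 and 17.9 CPM in animal KO 6, with at most 0.261 CPM elsewhere. The Y-linked helicase Ddx3y had a level of 0.382 CPM in KO 5, 64.8 CPM in KO 6 and 79.4 to 111 CPM in the other 6 libraries. Serum albumin alone took 4.17% to 6.48% of all counts in Het and 2.43% to 4.49% in KO. The pancreatic genes Prss1 and Cpa1 and the fat cell genes Lep and Plin1 were at 0 in all 8 libraries. Of the other fat and pancreas genes listed, Adipoq, Cfd, Pnlip and Amy2a5 held some counts but too few to be tested. Cela1 was tested.

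The targeted gene was lower in every KO library. Atp7b (gene number 11979; chromosome 8, 21992783 to 22060074, mm10) stood at 10, 13.6, 12.8 and 16.8 CPM in Het and 1.75, 1.68, 2.73 and 2.21 CPM in KO. All 4 KO levels lay below all 4 Het levels. The difference was 6.32-fold (log2 -2.66, SE 0.23, adjusted p = 2.86e-05), and an exact two-sided permutation test of the 8 levels gave p = 0.0286, the smallest p that 4 against 4 can give. The mean KO level was 15.7% of the mean Het level, so every KO library held some reads counted to the targeted gene. Which exons those reads cover was not analysed here.

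Loss of Atp7b came with changes in 5394 of the 13366 genes (40.4%). Of these, 2859 (21.4% of genes tested) were higher in KO and 2535 (19%) lower. The median log2 change was 1.60 among genes called higher and -0.69 among those called lower, and 2074 rose at least 2-fold (15.5%) against 612 that fell at least 2-fold (4.58%). The rises include genes that passed the filter through the KO libraries alone. Among the 11691 genes with 10 counts in all 8 libraries, 1249 rose and 510 fell at least 2-fold, and the medians were 1.13 and -0.70. Beyond 2-fold after allowing for the error (edgeR's glmTreat), 1284 genes changed (9.61%), of which 1098 rose (8.21%) and 186 fell (1.39%). Groups did not overlap for 5338 genes (39.9%).

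Direction followed abundance. Of 1073 genes with a mean under 1 CPM, 366 rose and 26 fell, and of 116 genes at 1000 CPM or over, 2 rose and 62 fell. The tiers between followed the same order: 1408 rose and 379 fell of 4348 genes at 1 to 10 CPM, 992 rose and 1527 fell of 6492 at 10 to 100 CPM, and 91 rose and 541 fell of 1337 at 100 to 1000 CPM. This split depends on the scaling. With library totals in place of TMM, the median change of all genes moved from -0.03 to 0.54 on the log2 scale, 93.8% of 6989 called genes were higher (49.0% of genes tested, with 3.24% lower), and at 100 to 1000 CPM 451 genes rose and 130 fell. At 1000 CPM or over, 18 rose and 39 fell with library totals. All changes below are relative to the TMM median unless a total-count value is named. As the median of all genes was 0.54 with library totals, a list median that turns positive there can still lie below it. Counts of called members in each list stand beside 21.4% higher and 19% lower among all genes, or 49.0% and 3.24% with library totals. The filter also bears on the lowest tier: 546 genes passed with 10 or more counts in all 4 KO libraries and in no Het library, and 8 passed the other way round. At the edge of the filter, the 667 genes that reached 10 counts in exactly 4 libraries had a median of 130 counts over the 8 libraries (118 in KO, 9 in Het), and the 436 that reached it in exactly 3 had 68 (57 in KO, 8 in Het).

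**Figure D1:**
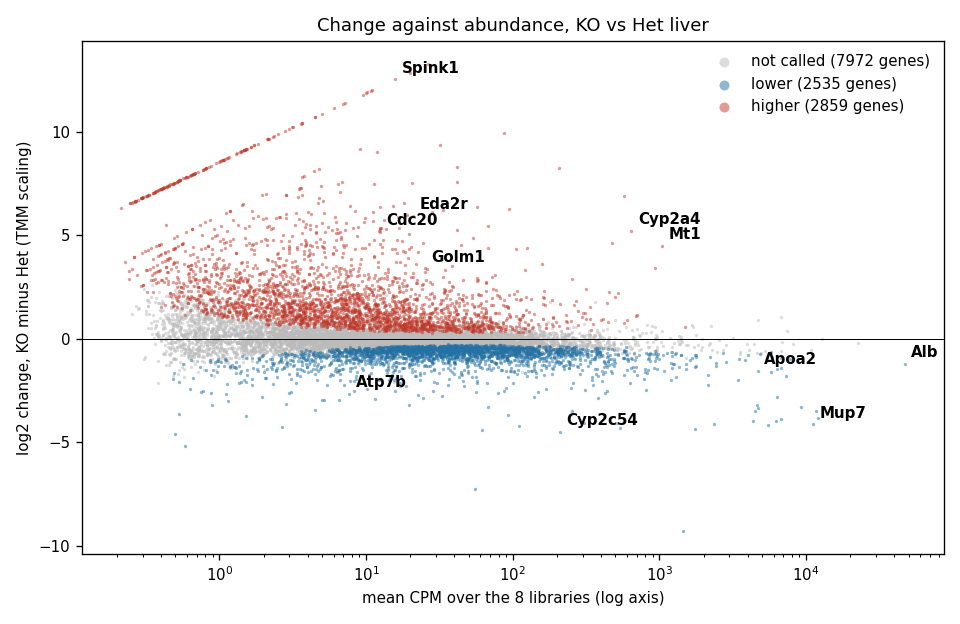
Change in KO relative to Het (log2, TMM scaling) against the mean level over the 8 libraries (CPM, log axis), 1 point per gene tested, coloured by the edgeR call. Rises dominate at low levels and falls at high levels under TMM scaling. With library totals, 451 genes rose and 130 fell at 100 to 1000 CPM. The straight edge at the top left is formed by genes with no count in Het, whose fitted change depends on the prior count and is not a measured fold.

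Without any scaling, the same shift shows in how the counts were divided. The 100 most abundant genes of each library took 43.6% to 51.4% of counts in Het and 32.9% to 37.1% in KO. The major urinary proteins, pheromone carriers that mouse liver secretes in bulk, took 12.5%, 16.6%, 12.4% and 12.3% of counts in Het and 2.02%, 1.89%, 0.826% and 2.39% in KO. The metallothionein and zinc transporter genes went from 0.0651 ± 0.0195% to 0.435 ± 0.0670%. For each of these 3 families the groups did not overlap (exact two-sided permutation p = 0.0286, adjusted over 9 families 0.0857), so none passed after adjustment. That p is the smallest that 4 against 4 can give. With only these 3 families at it, the adjusted p could not be lower at any size of difference. The plasma protein genes took 20.9 ± 2.58% in Het and 20.6 ± 1.66% in KO (exact permutation p = 0.914), and the ribosomal protein genes 1.14 ± 0.344% and 1.14 ± 0.230% (exact permutation p = 0.971).

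**Figure D2:**
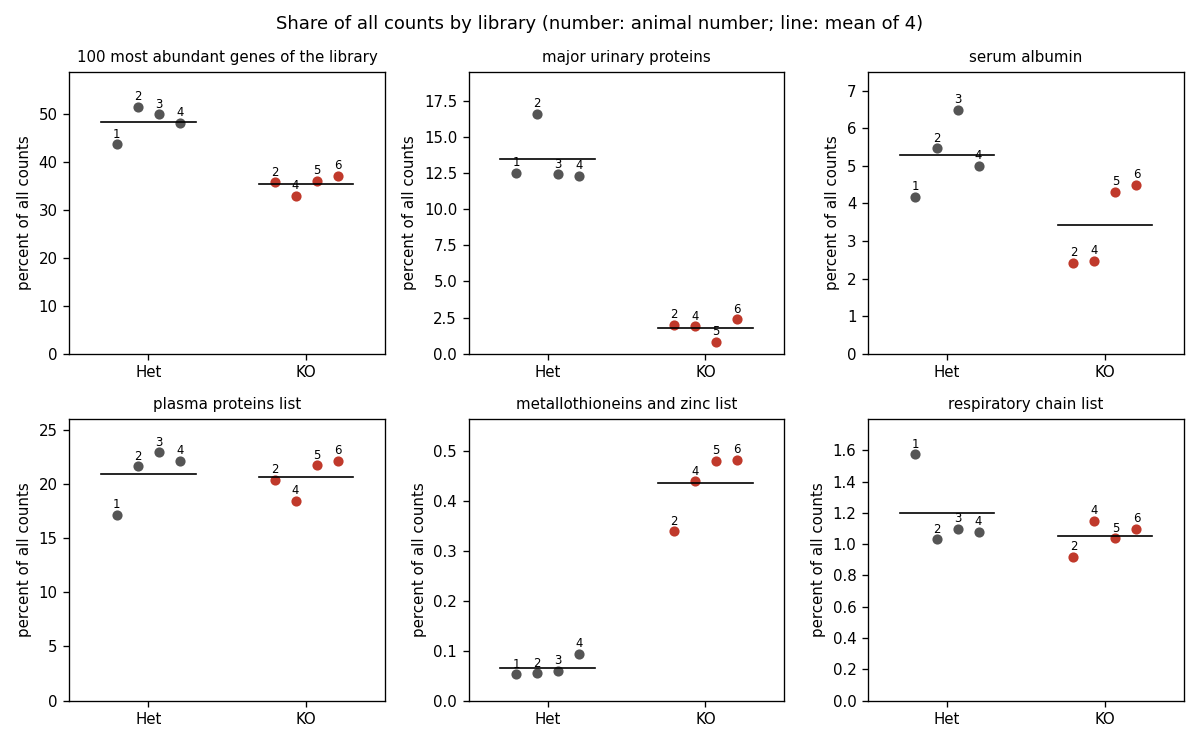
Percent of all counts in a library that 6 families took, 1 point per library with the animal number beside it and a line at the mean of 4. Het and KO are apart for the 100 most abundant genes, the major urinary proteins and the metallothionein and zinc genes, and overlap for albumin, the plasma proteins and the respiratory chain.

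Among the single genes that lost most counts were the major urinary protein genes. Mup7 fell from 21160 ± 5137 to 1200 ± 607 CPM and Mup3 from 8151 ± 1139 to 509 ± 208 CPM, with no overlap. Their sequences are nearly identical, so a value for 1 member is uncertain. Mup11 stood at 4178, 7304, 22.5 and 29.6 CPM in Het and 11, 3.03, 1.5 and 2.89 CPM in KO, with 2 Het libraries far above the other 2, and its call was lost with voom sample weights (adjusted p = 0.0871). Whether reads were shared among the copies was not tested. The gains in counts were led by Mt1, Cyp2a5, Cyp2a4, Lcn2, Mt2 and Ces2e. Cyp2a5 and Cyp2a4, close paralogs that hydroxylate coumarin and steroids, went from 161 ± 112 to 1698 ± 347 CPM and from 33.6 ± 15.3 to 1255 ± 562 CPM. Without Het 3 the log2 change of Cyp2a5 was 4.06 in place of 3.40, and without KO 5 and KO 6 that of Cyp2a4 was 4.58 in place of 5.22.

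Metal buffering genes rose. The metallothioneins Mt1 and Mt2 are small cysteine-rich proteins that bind zinc and copper, and MTF1, a zinc finger factor, drives them through metal response elements. Mt1 stood at 28.8, 11.9, 63.5 and 249.9 CPM in Het and 1417, 1763, 2408 and 2386 CPM in KO. Every KO level was above every Het level, and Het 4 was the highest of the controls. The change was 22.5-fold (log2 4.49, SE 0.83, adjusted p = 0.0021), and without Het 4 it was 57.4-fold. Mt2 stood at 3.4, 2.48, 19.6 and 122 CPM in Het and 676, 963, 924 and 1117 CPM in KO, with the same order of groups, and rose 24.9-fold (log2 4.64, SE 1.10, adjusted p = 0.00742), or 108-fold without Het 4. Both genes lie next to each other on chromosome 8.

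The sequences below show the start regions of the pair, from RefSeq (GRCm38.p6, the same build as mm10), from 250 bases before to 30 bases after the annotated start, 5′ to 3′. Capitals mark each match of TGCNCNC, the core of the metal response element, on either strand.
Mt1: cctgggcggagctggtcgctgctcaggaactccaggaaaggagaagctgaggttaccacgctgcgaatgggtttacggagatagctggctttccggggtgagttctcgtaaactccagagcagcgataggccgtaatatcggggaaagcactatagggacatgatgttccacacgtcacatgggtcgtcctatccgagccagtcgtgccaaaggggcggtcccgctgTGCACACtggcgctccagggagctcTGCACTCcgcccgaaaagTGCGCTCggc
Mt2: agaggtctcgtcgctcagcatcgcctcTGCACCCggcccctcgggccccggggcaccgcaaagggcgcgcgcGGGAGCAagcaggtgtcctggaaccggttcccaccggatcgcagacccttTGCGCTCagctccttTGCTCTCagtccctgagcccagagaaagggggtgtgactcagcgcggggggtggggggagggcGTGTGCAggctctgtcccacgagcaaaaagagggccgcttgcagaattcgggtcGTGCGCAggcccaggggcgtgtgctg
Mt1 (chr8:94178839-94179118, plus strand) held 3 matches, beginning at -23, 3 and 21 from the annotated start. Mt2 (chr8:94172368-94172647, plus strand) held 6, at -223, -178, -128, -113, -50 and 5. The annotated Mt1 gene begins at 94178883, before the start used here, while the Mt2 gene begins at the start used, 94172618. Bases outside these windows, further along Mt1 among them, were not searched. The numbers of matches are therefore those of the windows and do not compare the whole promoters. The gene of the factor itself, Mtf1, held none. These letters are common: 60.6% of the 10641 tested genes with a promoter entry held at least 1 match, so a match is a description of this window and not a binding site.

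Zinc and copper transporters moved in both directions. Slc30a1, the zinc exporter of the cell surface, stood at 24.6, 40.5, 61.4 and 45.5 CPM in Het and 94.2, 87.2, 78.1 and 92.8 CPM in KO and rose 2.05-fold (log2 1.03, SE 0.23, adjusted p = 0.00546). Slc30a10, which exports manganese, stood at 49.6, 85.1, 71.6 and 67.5 CPM in Het and 22.9, 18.1, 25.3 and 29.5 CPM in KO and fell 2.86-fold (log2 -1.51, SE 0.19, adjusted p = 0.000262). Of 11 zinc transporters 1 rose and 3 fell (Slc30a10, Slc39a8 and Slc30a4), beside 21.4% higher and 19% lower among all genes. With library totals 5 rose and 1 fell, and without Het 2 or Het 4 only 1 fell. Slc31a1, the copper importer of the cell surface, fell from 157 ± 17.4 to 73.1 ± 7.61 CPM (log2 -1.10, SE 0.14, adjusted p = 0.000219), with no overlap between the groups. Of the 14 genes of copper transport and chaperoning, Steap4, a metalloreductase, rose and 7 fell, among them Ccs, which delivers copper to superoxide dismutase, and Sco2, which delivers it to cytochrome oxidase. The median of the list was -0.44 under TMM scaling and 0.11 with library totals, where 6 rose and 2 fell, and Ccs lost its call (adjusted p = 0.57). Copper enzymes and carriers rose in 4 of 9 members (Loxl2, Sod3, Pam and Lox), and Sod1, the cytosolic superoxide dismutase, fell (-0.65, adjusted p = 0.00898; with library totals -0.11, adjusted p = 0.67). Atp7a was not called. Neither were Atox1, the chaperone that hands copper to Atp7b, nor the ceruloplasmin gene Cp, but both were called higher with library totals (log2 0.87, adjusted p = 0.0117, and log2 1.22, adjusted p = 0.00925).

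**Figure D3:**
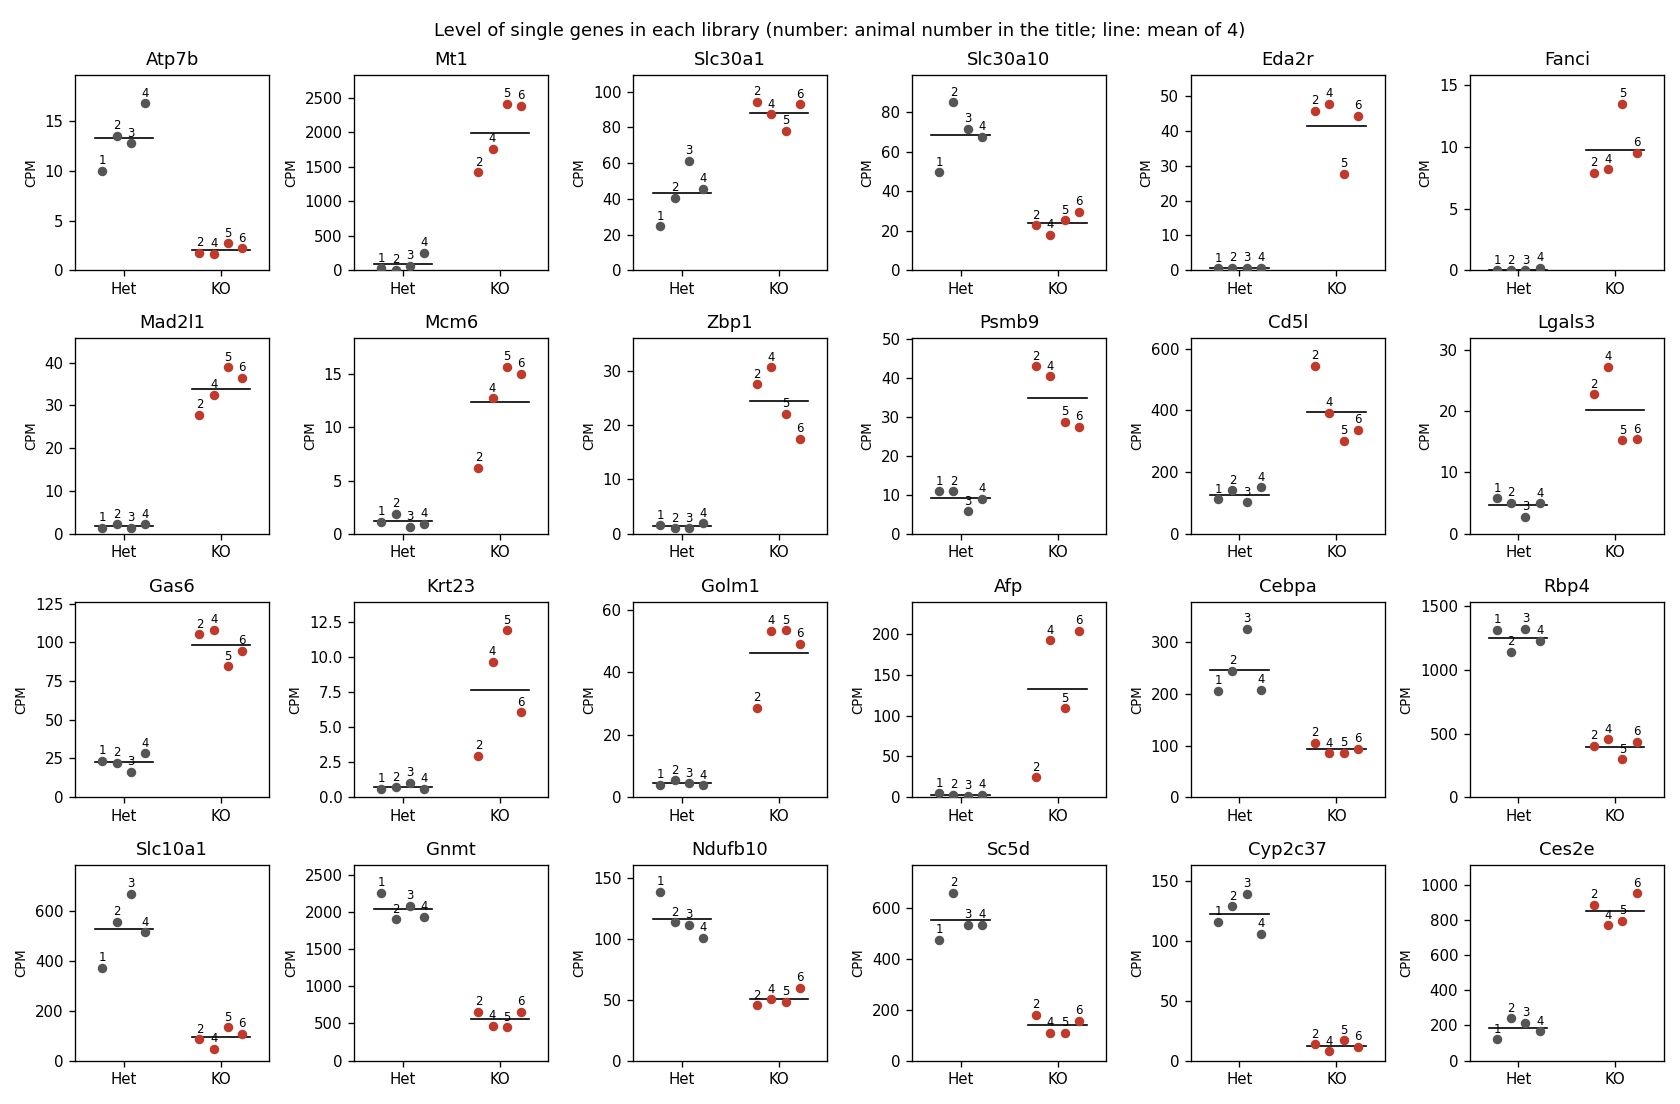
Level of 24 genes in each library (CPM, linear axes from 0), with the animal number beside each point and a line at the mean of 4. In every panel the 4 KO points lie on 1 side of the 4 Het points. For Mt1 the highest control is Het 4, without which its log2 change was 5.84 in place of 4.49.

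Targets of p53, the factor that stops the cell cycle after DNA damage, rose in 25 of 34 members tested, and 2 fell (Perp and Sesn1), beside 21.4% higher and 19% lower among all genes. Their median log2 change was 1.55. Eda2r, which binds ectodysplasin A2, stood at 0.575, 0.70, 0.722 and 0.688 CPM in Het and 45.8, 47.7, 27.6 and 44.3 CPM in KO and rose 61.1-fold (log2 5.93, SE 0.23, adjusted p = 2.66e-07), the smallest adjusted p of the genes named here. KO 5 was the lowest of the KO libraries. Phlda3, which holds back the kinase Akt, went from 0.335 ± 0.0533 to 19.3 ± 5.15 CPM. Among targets picked after their values were seen, Mdm2, the ligase that degrades p53, stood at 21.2, 22.3, 22.9 and 24.3 CPM in Het and 53.1, 60.4, 44.5 and 51 CPM in KO (2.30-fold, log2 1.20, SE 0.12, adjusted p = 7.18e-05). Cdkn1a, the p21 inhibitor of cyclin-dependent kinases, stood at 2.56, 6.51, 22.3 and 18 CPM in Het and 52.1, 80.6, 46.1 and 67.4 CPM in KO, with a wide spread among the controls.

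Genes of mitosis rose almost without exception. Of 20 kinases, cyclins and activators 18 rose and of 33 genes of the kinetochore, spindle and cytokinesis 32 rose, with none lower, and the same 18 and 32 counts stood without KO 5 and KO 6. The median log2 changes were 4.28 and 4.32. Mad2l1, the spindle checkpoint protein, stood at 1.36, 2.21, 1.45 and 2.17 CPM in Het and 27.9, 32.5, 38.9 and 36.4 CPM in KO and rose 18.9-fold (log2 4.24, SE 0.20, adjusted p = 1.09e-06). The lowest KO level was above the highest Het level. Cdc20, the activator of the anaphase-promoting complex that Mad2l1 holds in check, stood at 0.627, 1.08, 0.333 and 0.635 CPM in Het and 21.6, 19.3, 33 and 22.6 CPM in KO (35.8-fold, log2 5.16, SE 0.31, adjusted p = 3.3e-06). Prc1, which bundles microtubules for cytokinesis, went from 0.848 ± 0.301 to 20.2 ± 3.64 CPM, and Smc2, the core subunit of condensin, from 4.55 ± 0.872 to 47.6 ± 7.72 CPM. In sum, the kinetochore, spindle and cytokinesis genes stood at 50.6 to 73.5 CPM in Het and 474 to 775 CPM in KO, highest in KO 5.

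The sequences below show the starts of 3 of these genes, since many mitosis genes share an element there, the cell cycle genes homology region (CHR), bound by the DREAM and B-MYB complexes. Each runs from 120 bases before to 30 bases after the RefSeq start (GRCm38.p6), 5′ to 3′ along the gene, with TTTGAA or its reverse complement TTCAAA in capitals.
Cdc20: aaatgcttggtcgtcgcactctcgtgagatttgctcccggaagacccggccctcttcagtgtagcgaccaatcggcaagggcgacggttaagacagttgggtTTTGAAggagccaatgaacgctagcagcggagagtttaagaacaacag
Cdk1: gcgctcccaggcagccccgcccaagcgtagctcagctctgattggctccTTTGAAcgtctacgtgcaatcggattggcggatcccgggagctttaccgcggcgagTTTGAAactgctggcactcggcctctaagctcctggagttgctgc
Top2a: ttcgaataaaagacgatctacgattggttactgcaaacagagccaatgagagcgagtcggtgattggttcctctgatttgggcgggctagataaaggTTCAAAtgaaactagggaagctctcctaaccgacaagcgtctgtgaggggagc
Cdc20 (chr4:118437314-118437463, minus strand) held its match at -18, Cdk1 (chr10:69352883-69353032, minus strand) at -71 and -15, and Top2a (chr11:99024160-99024309, minus strand) at -23, with a further match at -179 outside the stretch shown. All 3 genes rose: Cdk1, the mitotic kinase, from 1.49 ± 1.05 to 29.9 ± 7.66 CPM and Top2a, which untangles chromosomes, from 1.88 ± 0.819 to 37.5 ± 7.46 CPM. Without Het 2 the log2 change of Cdk1 was 5 in place of 4.32. In the full window of 280 bases, 24 of 45 mitosis genes with a promoter entry held at least 1 match, against 14.4% of the tested genes. Mad2l1 was among those without a match.

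Repair genes of different pathways gave different counts. All 19 tested genes of homologous recombination and the Fanconi pathway rose, with a median log2 change of 3.65, and 17 were called without KO 5 and KO 6. Fanci, a subunit of the clamp that marks crosslinked DNA, was at 0 in 3 Het libraries and at 0.212 CPM in Het 4. It stood at 7.91, 8.20, 13.5 and 9.52 CPM in KO (log2 7.38, adjusted p = 2.19e-05). Without Het 4 the adjusted p was 6.93e-05. The fitted log2 change of 10.9 then depends on the prior count and is not a measured fold, as no Het count is left. Blm, the helicase that dissolves recombination intermediates, stood at 1.31, 1.78, 1.39 and 1.64 CPM in Het and 9.17, 6.34, 9.87 and 9.31 CPM in KO (5.67-fold, log2 2.50, SE 0.22, adjusted p = 2.96e-05). Brca1, chosen after its values were seen, went from 2.89 ± 1.17 to 22.3 ± 6.94 CPM. The genes of excision, mismatch repair and damage signalling rose in 5 of 17 members and fell in 2 (Apex1 among them), with a median of 0.14. Without KO 5 and KO 6, 3 rose, and with library totals 13 rose and 1 fell, at a median of 0.74. The 5 included the damage kinases Atr and Chek2: Chek2 stood at 2.46, 2.64, 2.22 and 2.33 CPM in Het and 11.4, 12.4, 17.2 and 14.3 CPM in KO (5.74-fold, log2 2.52, SE 0.18, adjusted p = 8.99e-06).

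Replication genes rose less evenly than mitosis genes. Of 17 licensing and helicase genes 12 rose and 1 fell, and 8 rose without KO 5 and KO 6. Mcm6, a subunit of the replicative helicase, stood at 1.1, 1.88, 0.667 and 0.952 CPM in Het and 6.19, 12.7, 15.7 and 15 CPM in KO and rose 10.7-fold (log2 3.42, SE 0.38, adjusted p = 0.000119), lowest among KO in KO 2. Dbf4, the activator of the licensing kinase Cdc7, went from 3.1 ± 0.349 to 14.3 ± 1.32 CPM. The exception was Mcm10, which stood at 87.1, 126, 53.6 and 63.4 CPM in Het and 34.4, 13.6, 19.1 and 25 CPM in KO and fell 3.58-fold (log2 -1.84, SE 0.32, adjusted p = 0.0016). Mcm10 was the member with the highest level in Het. The summed level of all 19 listed genes, tested or not, overlapped between the groups, at 113 to 196 CPM in Het and 126 to 160 CPM in KO. Polymerases, the clamp and nucleotide enzymes rose in 7 of 20 members (4 without KO 5 and KO 6, 14 with library totals) and Pold2 fell, from 10.2 ± 1.93 to 4.44 ± 0.895 CPM. Rrm1, the large subunit of ribonucleotide reductase, rose from 10.3 ± 1.55 to 27.2 ± 3.31 CPM. Among 13 genes of G1/S control, 5 rose and 3 fell (Cdk2, Cdk4 and E2f8; 1 with library totals). Ccnd1, cyclin D1, stood at 20, 26.4, 18.3 and 30 CPM in Het and 84.6, 145, 118 and 146 CPM in KO (5.21-fold, log2 2.38, SE 0.22, adjusted p = 4.35e-05). Core and linker histone genes rose in 6 of 20 members and fell in 3 (11 and none with library totals). No difference in their share of all counts was detected (0.0119 ± 0.00167% in Het, 0.0150 ± 0.00300% in KO, exact permutation p = 0.229).

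Markers of leukocytes were higher in KO. Kupffer cells are the resident macrophages of the sinusoids, and monocyte-derived macrophages join them in injured liver. Of 18 Kupffer cell genes 12 rose, and of 28 genes of recruited and lipid-associated macrophages 24 rose. None of the former fell, and of the latter only Fabp5, a fatty acid binding protein, did, from 32.2 ± 7.75 to 10.7 ± 2.17 CPM. Cd5l, a secreted macrophage protein, stood at 112, 141, 102 and 151 CPM in Het and 544, 391, 302 and 337 CPM in KO (3.12-fold, log2 1.64, SE 0.22, adjusted p = 0.000322). Folr2, a folate receptor of resident macrophages, went from 11.5 ± 0.842 to 28.7 ± 5.72 CPM, and Lgals3, galectin-3, from 4.64 ± 1.29 to 20.1 ± 5.87 CPM (log2 2.11, SE 0.27, adjusted p = 0.000254). Clec4f, the marker most particular to Kupffer cells in mice, went from 128 ± 16.1 to 210.4 ± 47.5 CPM, and its call was lost without KO 5 and KO 6 (adjusted p = 0.0803). Trem2 and Gpnmb, markers of lipid-associated macrophages picked after their values were seen, were not called (adjusted p = 0.607 and 0.115), and Trem2 had a mean under 1 CPM in both groups. Other genes of such cells in the list rose, among them Spp1, Cd9, Cd63 and Itgax.

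T and NK cell genes rose in 13 of the 14 members tested, with Cd4 as the exception, and neutrophil and mast cell genes in 9 of 12. The lists hold 23 and 17 genes, and the others, such as Cd3e, Prf1 and Ly6g, had too few counts or no entry. Genes low in Het could pass the filter through KO alone: Gzmb held 5 counts over the 4 Het libraries and 185 over the 4 KO libraries. The summed levels of all listed members with an entry, tested or not, stayed low. T and NK genes went from 4.95 to 7.81 CPM in Het to 18 to 45.4 CPM in KO, and neutrophil and mast cell genes from 9.73 to 23.6 CPM to 32.5 to 118.9 CPM. KO 2 and KO 4 held the higher T and NK sums (45.4 and 44.4 CPM, against 18 in KO 5 and 18.6 in KO 6). The mast cell genes Mcpt4 and Fcer1a were at 0 in all libraries. B and plasma cell genes rose in 3 of the 6 members tested. Of these, Sdc1 is also made by hepatocytes and lost its call without KO 5 and KO 6 (adjusted p = 0.058). Cd22, a B cell lectin, went from 1.04 ± 0.16 to 3.4 ± 0.89 CPM.

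Chemokine ligands rose in 9 of the 15 members tested and receptors in 5 of 7. The summed level of all listed ligands, tested or not, overlapped between the groups (254.5 to 369.2 CPM in Het, 288.2 to 615.7 CPM in KO). Ccl2, which draws monocytes, stood at 0.157, 0, 0 and 0.317 CPM in Het and 14.4, 14.1, 3.2 and 1.49 CPM in KO, near 0 in the controls and highest in KO 2 and KO 4 (adjusted p = 0.00117). The log2 change of Ccl2 rested partly on single libraries, with 6.05 in all, 7.14 if Het 4 is left out and 6.82 if KO 5 and KO 6 are. Cxcr4 rose from 0.651 ± 0.345 to 3.26 ± 1.57 CPM, while its ligand Cxcl12 fell from 156 ± 31.9 to 75.5 ± 10.4 CPM under TMM scaling and was not called with library totals (adjusted p = 0.0741). Cytokine and NF-kB genes rose in 17 of 22 members, and Il18 and Il1r1 fell (none fell with library totals or without KO 5 and KO 6). Il33, an alarmin of stromal and epithelial cells, stood at 1.83, 0.969, 1.06 and 0.793 CPM in Het and 5.78, 9.41, 5.88 and 7.56 CPM in KO (6.12-fold, log2 2.61, SE 0.30, adjusted p = 0.000151). Lcn2, lipocalin-2, an iron-scavenging protein of the acute phase, stood at 3.08, 5.38, 1.28 and 29 CPM in Het and 1925, 2241, 150.3 and 251 CPM in KO, far higher in KO 2 and KO 4 than in the other KO libraries. Its log2 change was 6.88 (8.45 without Het 4, 7.75 without KO 5 and KO 6). Inducible acute phase genes rose in 8 of 22 members and Crp fell. Without KO 5 and KO 6, 12 rose and none fell, and with library totals 16 rose and none fell.

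Interferon-stimulated genes rose in 27 of 32 members with none lower, at a median log2 change of 1.37. Zbp1, a sensor of left-handed nucleic acid, stood at 1.52, 1.02, 1.0 and 1.9 CPM in Het and 27.5, 30.6, 22.1 and 17.5 CPM in KO and rose 17.9-fold (log2 4.16, SE 0.27, adjusted p = 4.8e-06). Ifi27 went from 56.2 ± 10.9 to 212 ± 36.5 CPM (log2 1.91, SE 0.19, adjusted p = 5.86e-05). Oas1a, which makes the second messenger that activates RNase L, stood at 3.24, 2.42, 1.67 and 2.43 CPM in Het and 14.1, 17, 6.5 and 8.8 CPM in KO and Ifit1, which binds foreign RNA ends, at 8.36, 6.03, 5.83 and 6.61 CPM in Het and 26, 21.7, 11.6 and 10.3 CPM in KO. In both, the highest levels were in KO 2 and KO 4, and all KO levels were above the Het levels. These 2 were chosen after their values were seen because their start regions show the element through which the factor ISGF3 acts, GAAA, any 2 bases and GAAA again, in adjacent copies. They are shown from 120 bases before to 30 after the RefSeq start (GRCm38.p6), 5′ to 3′, with matches on either strand in capitals.
Oas1a: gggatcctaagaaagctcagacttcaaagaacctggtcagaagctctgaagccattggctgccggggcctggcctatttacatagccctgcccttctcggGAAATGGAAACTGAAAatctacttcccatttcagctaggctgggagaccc
Ifit1: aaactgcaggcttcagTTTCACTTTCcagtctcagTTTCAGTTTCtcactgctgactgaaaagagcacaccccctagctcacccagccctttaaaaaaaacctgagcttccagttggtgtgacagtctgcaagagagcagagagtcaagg
Oas1a (chr5:120907496-120907645, minus strand) held overlapping matches at -20 and -14, and Ifit1 (chr19:34640769-34640918, plus strand) held matches on the other strand at -104 and -85. Of 23 interferon-stimulated genes with a promoter entry 14 held a match in the window of 280 bases, against 3.73% of the tested genes.

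Antigen presentation genes rose with them. Of 11 class I genes 9 rose and of 10 class II and costimulation genes 9 rose. Psmb9, a subunit of the immunoproteasome, stood at 10.9, 10.9, 5.78 and 8.94 CPM in Het and 43, 40.5, 28.8 and 27.4 CPM in KO (3.82-fold, log2 1.93, SE 0.23, adjusted p = 0.000177). H2-DMb1, which loads peptides on class II, stood at 4.76, 3.55, 2.89 and 3.49 CPM in Het and 21.2, 25.6, 8.82 and 8.33 CPM in KO, again higher in KO 2 and KO 4. H2-K1 and B2m, the abundant parts of class I itself, were not called, and the summed class I level overlapped between the groups (2744 to 4074 CPM in Het, 3083 to 6040 CPM in KO).

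**Figure D4:**
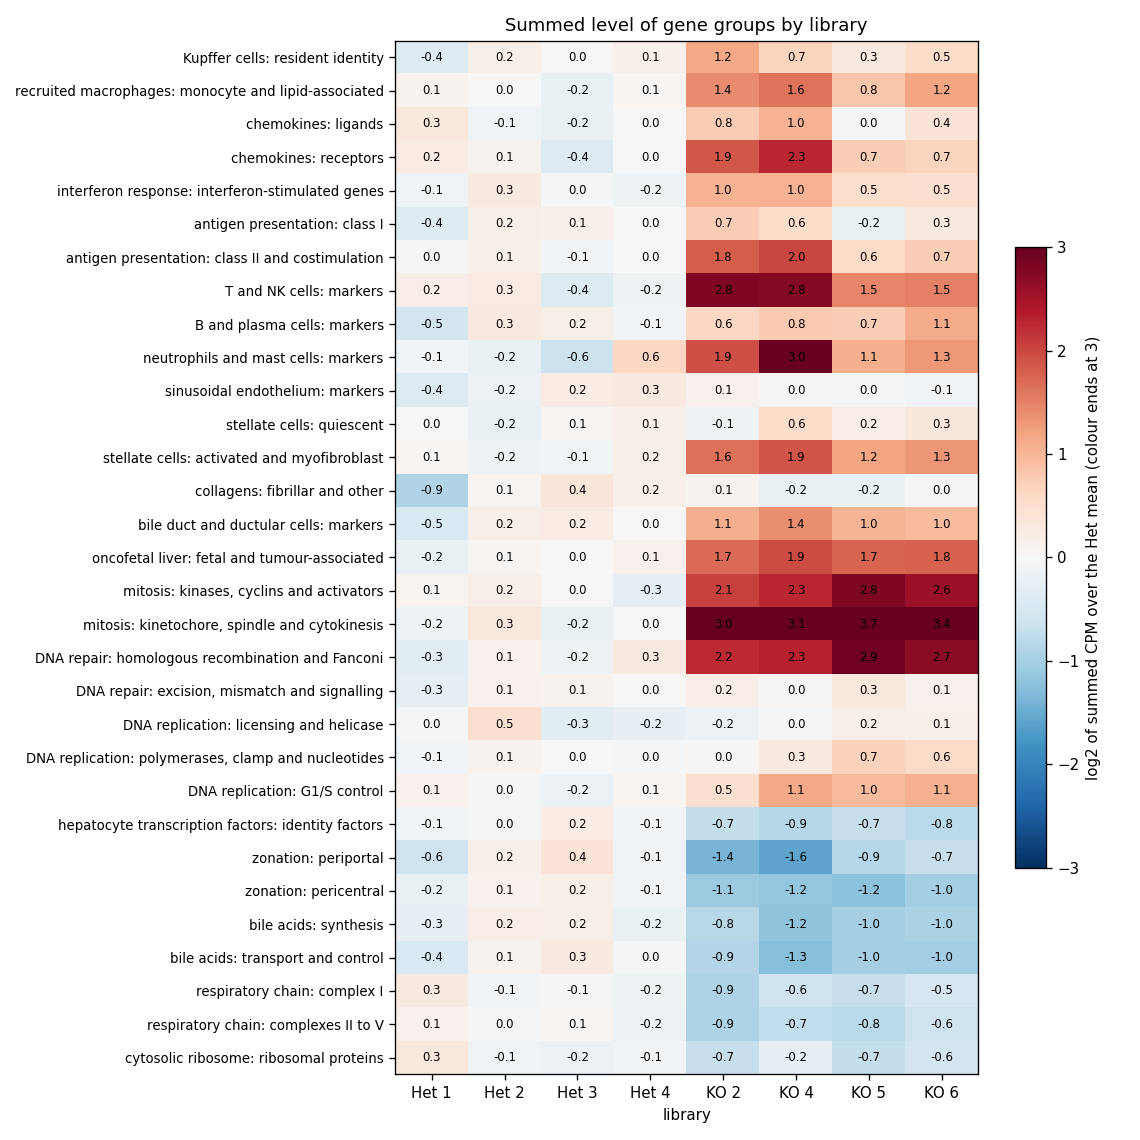
Summed level of 31 gene groups in each library, as the log2 of summed CPM over the mean of the 4 Het libraries (colour ends at 3). Sums cover all listed members with an entry, tested or not. Mitosis and recombination genes are highest in KO 5 and KO 6, while T and NK cell, class II and chemokine receptor genes are highest in KO 2 and KO 4. The summed levels of sinusoidal endothelium, quiescent stellate cells, collagens and licensing genes overlap between the groups. So do those of chemokine ligands, class I genes, replication polymerases and nucleotide enzymes, and genes of excision, mismatch repair and damage signalling. With library totals, the median change of the pericentral and ribosomal protein lists has the other sign, but stays below the 0.54 of all genes.

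Stellate cells store vitamin A at rest and turn into matrix-making myofibroblasts when activated. Of 21 genes of activated stellate cells and myofibroblasts 16 rose with none lower, and of 14 genes of quiescent cells 3 rose (5 with library totals). For the quiescent genes the share of rises was near the 21.4% among all genes, and below the 49.0% with library totals. Gas6, a ligand of the receptor Axl, stood at 23.7, 22.2, 16.3 and 28.4 CPM in Het and 105.3, 108, 84.7 and 94.5 CPM in KO (4.33-fold, log2 2.12, SE 0.17, adjusted p = 2.07e-05), and Thbs1, thrombospondin-1, went from 0.884 ± 0.156 to 5.61 ± 1.49 CPM. The contractile genes Acta2, Tagln and Myl9 were not called. Collagen genes rose in 11 of 22 members (19 with library totals). Col5a3 went from 0.791 ± 0.241 to 5.23 ± 1.34 CPM and Col4a5 from 0.801 ± 0.347 to 4.98 ± 1.14 CPM. The main fibrillar collagens differed within the KO group: Col1a1, chosen after its values were seen, stood at 1.1, 0.861, 1.11 and 1.53 CPM in Het and 10.2, 12, 2.03 and 2.0 CPM in KO and Col3a1 at 21, 18.7, 20.6 and 19.2 CPM in Het and 101, 100.2, 33 and 31.2 CPM in KO. Both were several times higher in the pair KO 2 and KO 4 than in the other pair. Without the latter their log2 changes were 3.26 in place of 2.50 and 2.34 in place of 1.74, and Col1a1 lost its call with voom sample weights (adjusted p = 0.0854). The summed level of collagens overlapped between the groups (620.6 to 1496 CPM in Het, 987.8 to 1242 CPM in KO). Most of it was Col18a1, at 464, 1037, 1255 and 1036 CPM in Het and 769.8, 494, 743 and 838 CPM in KO, which was not called and whose change has the other sign with library totals. Matrix proteases, inhibitors and crosslinking enzymes rose in 17 of 30 members with none lower, and Loxl2, a lysyl oxidase, went from 2.23 ± 0.452 to 7.45 ± 2.41 CPM. Markers of sinusoidal endothelium rose in 5 of 24 members and Dnase1l3 fell, at a median of 0.01, and 3 rose without Het 4, KO 2 or KO 4. With library totals 11 rose and none fell. Both shares of rises were near those among all genes, 21.4% and 49.0%.

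Genes of bile duct and ductular cells rose in 17 of 26 members, and 2 fell, Onecut1 among them. Krt23, a stress-induced keratin, stood at 0.575, 0.70, 1.0 and 0.582 CPM in Het and 2.95, 9.65, 11.9 and 6.03 CPM in KO (10.6-fold, log2 3.41, SE 0.44, adjusted p = 0.000309), and Ezr, which links membrane to actin, at 6.69, 5.11, 3.78 and 4.07 CPM in Het and 14, 19.9, 14.5 and 14.1 CPM in KO (3.17-fold, log2 1.66, SE 0.21, adjusted p = 0.00029). Of 4 duct cell markers picked after their values were seen, Krt19, Krt7 and Sox9 were not called (adjusted p = 0.538, 0.309 and 0.611), with Krt19 at 1.78, 0.538, 0.667 and 0.529 CPM in Het and 0.701, 2.94, 0.50 and 1.02 CPM in KO. The fourth, Epcam, rose, at 0.732, 0.70, 0.50 and 0.635 CPM in Het and 2.22, 6.06, 2.29 and 2.68 CPM in KO, highest in KO 4.

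Genes that fetal liver and liver tumours share rose in 21 of 25 members, and Mycn fell. Golm1, a Golgi membrane protein raised in liver disease, stood at 3.92, 5.33, 4.45 and 3.81 CPM in Het and 28.6, 53.2, 53.4 and 49 CPM in KO (10.5-fold, log2 3.39, SE 0.22, adjusted p = 5.4e-06). Afp, alpha-fetoprotein, stood at 4.81, 3.12, 1.72 and 2.59 CPM in Het and 24.1, 192, 109 and 204 CPM in KO, lowest among KO in KO 2, and rose 43-fold (log2 5.43, SE 0.64, adjusted p = 0.000178). The summed level of the list was 405.8 to 516.5 CPM in Het and 1526, 1817, 1571 and 1591 CPM in KO. H19, a member that is also in the long noncoding RNA list, and Gpc3 and Igf2, picked after their values were seen, varied more within the KO group. H19, an imprinted noncoding RNA, stood at 0, 0.215, 0.111 and 0.37 CPM in Het and 7.36, 27.2, 439.8 and 225 CPM in KO, and its log2 change was 9.93, or 6.58 without KO 5 and KO 6. Its call was lost with voom sample weights (adjusted p = 0.0689). Gpc3, glypican-3, stood at 3.4, 1.51, 1.06 and 1.11 CPM in Het and 3.83, 22.8, 72.2 and 56 CPM in KO and Igf2, the fetal growth factor next to H19, at 1.31, 0.377, 0.278 and 0.635 CPM in Het and 1.28, 4.15, 22.8 and 17.1 CPM in KO. All 3 were highest in KO 5 and KO 6, the libraries that held Xist RNA, and whether sex had a part in this was not tested. Without these libraries the log2 changes were 2.90 in place of 4.44 for Gpc3 and 2.03 in place of 4.11 for Igf2, and without Het 1 they were 5.04 and 4.76. For Igf2 the groups overlapped, since Het 1 was above KO 2, and its call was lost with voom sample weights (adjusted p = 0.0656).

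Cytoskeletal genes rose in 20 of 22 members with none lower. Tubb6, a beta-tubulin, went from 4.57 ± 1.61 to 22.1 ± 4.14 CPM and Capg, an actin-capping protein of macrophages and migrating cells, from 1.79 ± 0.257 to 12.6 ± 6.23 CPM. Calcium-binding S100 and annexin genes rose in 11 of 19 members and fell in 3 (S100a1, S100a13 and S100a16). S100a11 stood at 0.732, 0.592, 0.222 and 0.899 CPM in Het and 24.9, 34.3, 17.6 and 20.7 CPM in KO (39.3-fold, log2 5.30, SE 0.35, adjusted p = 5.52e-06), and Anxa5, which binds phosphatidylserine, went from 31.1 ± 2.63 to 131 ± 19.3 CPM (log2 2.07, SE 0.14, adjusted p = 6.24e-06). Junction proteins rose in 7 of 21 members and fell in 2 (5 and 4 without KO 5 and KO 6, 12 and none with library totals), and Cdh1, E-cadherin, went from 28.1 ± 7.66 to 81.3 ± 7.31 CPM. YAP targets rose in 6 of 9 members, Ajuba among them (1.91 ± 0.306 to 9.36 ± 2.6 CPM). Of immediate-early and growth signal genes 8 of 22 rose and 5 fell, with 4 higher without KO 2 and 5 without KO 4, 3 lower without KO 5 and KO 6, and 11 higher and 2 lower with library totals. Atf3, a stress-induced factor, stood at 0.732, 0.754, 0.667 and 0.899 CPM in Het and 7.45, 5.87, 4.08 and 1.87 CPM in KO.

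Hepatocyte transcription factors fell. Of 26 factors 18 fell and only Cebpd, a factor of the acute phase, rose. Without KO 5 and KO 6 10 fell, and with library totals 5 fell and 4 rose, the median staying below 0 (-0.23, against -0.79 with TMM). Cebpa, which drives hepatocyte metabolism, stood at 206, 245, 326 and 208 CPM in Het and 106, 85.1, 86.2 and 93.2 CPM in KO and fell 2.66-fold (log2 -1.41, SE 0.18, adjusted p = 0.000232). Foxa1, a pioneer factor of liver genes, stood at 10.3, 10.7, 9.28 and 8.68 CPM in Het and 4.0, 3.87, 3.29 and 2.25 CPM in KO (2.90-fold lower, log2 -1.54, SE 0.21, adjusted p = 0.000372). Hnf4a, the master regulator of hepatocyte identity, picked after its values were seen, stood at 798, 828, 1004 and 838 CPM in Het and 462, 416, 457 and 423 CPM in KO and fell 1.97-fold (log2 -0.98, SE 0.15, adjusted p = 0.000686). In all 3 the groups did not overlap.

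The secreted products of hepatocytes moved less evenly. Of 43 plasma protein genes 15 fell and none rose (23 fell without Het 1, and 2 rose and 13 fell without KO 5 and KO 6), at a median of -0.53. With library totals 8 rose and 6 fell and the median was 0.08. Rbp4, which carries retinol, stood at 1314, 1145, 1322 and 1228 CPM in Het and 404, 455, 298 and 435 CPM in KO (3.15-fold lower, log2 -1.65, SE 0.18, adjusted p = 0.000103), and Apoa2, an apolipoprotein of high-density lipoprotein, at 8610, 6273, 7150 and 5880 CPM in Het and 1982, 2367, 2342 and 2849 CPM in KO (2.93-fold lower, log2 -1.55, SE 0.22, adjusted p = 0.000462). Albumin itself went from 65630 ± 18670 to 28363 ± 10336 CPM (adjusted p = 0.023), and its call was lost with library totals (adjusted p = 0.0675), with FPKM (0.184) and without Het 2, Het 3, Het 4, KO 2 or KO 4 (0.0503 to 0.074).

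Zonation describes how hepatocytes divide their work between the portal and the central end of the lobule. Of 18 periportal genes 11 fell and none rose (7 without Het 2; 4 fell and 2 rose with library totals). Cyp2f2, a periportal P450, stood at 502, 1398, 1297 and 946 CPM in Het and 262, 99.2, 228 and 336 CPM in KO (4.48-fold lower, log2 -2.16, SE 0.40, adjusted p = 0.00212). Of 21 pericentral genes 10 fell and 3 rose, 5 fell without KO 5 and KO 6, and the median changed sign with library totals (-0.48 and 0.11). Notum, a Wnt inhibitor made at the central vein, stood at 20.1, 28.1, 28.7 and 23.5 CPM in Het and 4.23, 7.32, 7.58 and 7.69 CPM in KO (3.75-fold lower, log2 -1.91, SE 0.21, adjusted p = 0.000119), and Glul, glutamine synthetase, chosen after its values were seen, at 1247, 1389, 1063 and 939 CPM in Het and 406, 522, 342 and 428 CPM in KO (2.73-fold lower, log2 -1.45, SE 0.19, adjusted p = 0.000356). Both ends of the lobule thus held genes that fell. Slc1a4, a transporter of serine and alanine, rose instead, from 5.15 ± 2.05 to 28.5 ± 4.79 CPM (log2 2.47, SE 0.25, adjusted p = 7.78e-05).

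Nuclear genes of the respiratory chain fell by small amounts. Of 37 complex I genes 27 fell and of 35 genes of complexes II to V 33 fell, with none higher, at medians of -0.63 and -0.76. With library totals 2 and 5 fell, none rose, and the medians were -0.09 and -0.21. Ndufb10, a complex I subunit, stood at 139, 114, 111 and 101 CPM in Het and 45.4, 50.2, 48.3 and 59.5 CPM in KO (2.28-fold lower, log2 -1.19, SE 0.14, adjusted p = 0.000176). Atp5g1, a gene for the ring subunit c of ATP synthase, stood at 270.3, 209.8, 234 and 211 CPM in Het and 59, 78.1, 94.7 and 93.9 CPM in KO (2.84-fold lower, log2 -1.51, SE 0.18, adjusted p = 0.000173). The share of all counts held by these genes did not differ beyond the spread (1.20 ± 0.253% in Het, 1.05 ± 0.0993% in KO, exact permutation p = 0.457), and Het 1 was the highest, at 1.57%.

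The calls of ribosomal protein genes depended on scaling and on single libraries. Mitochondrial ribosome genes fell in 23 of 36 members (12 without Het 1 or Het 2, 15 without KO 2 or KO 4), but with library totals none fell, 3 rose and the median went from -0.42 to 0.14. Cytosolic ribosomal protein genes fell in 29 of 52 members. With library totals none was called and the median went from -0.50 to 0.05, without KO 5 and KO 6 4 fell, and over the leave-outs of 1 library 11 to 39 fell (11 without Het 1, 16 without Het 2, 18 without Het 3, 17 without Het 4, 12 without KO 2, and 13 without KO 5 or KO 6). Tricarboxylic acid cycle and pyruvate genes fell in 9 of 20 members, with a median that changed sign with library totals (-0.25 and 0.32). Pdk4, the kinase that shuts pyruvate dehydrogenase in fasting, was the 1 that rose, from 6.7 ± 2.12 to 41.1 ± 17.4 CPM, while Pdk1 fell from 144 ± 32.4 to 48.5 ± 12.6 CPM.

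Cholesterol synthesis genes fell together. Of 26 genes of sterol synthesis, uptake and sensing 20 fell and 1 rose, Npc1l1, at a median of -0.97. With library totals 10 fell and 2 rose, at -0.41. Sc5d, the sterol desaturase near the end of the pathway, stood at 476, 659, 535 and 534 CPM in Het and 179, 110, 109.8 and 157 CPM in KO (3.96-fold lower, log2 -1.99, SE 0.20, adjusted p = 8.12e-05). Stard4, a cytosolic sterol carrier and SREBP2 target, stood at 135, 75.8, 73.7 and 88 CPM in Het and 28.1, 16.6, 19.8 and 20.6 CPM in KO (4.37-fold lower, log2 -2.13, SE 0.23, adjusted p = 0.000108). Srebf2, the factor that drives these genes, was not called. The sterol regulatory element, searched as TCACNCCAC in the window of 280 bases, was found in 1 of 18 of these genes with a promoter entry and in 1.38% of the tested genes. LXR target and efflux genes rose in 5 of 18 members and Srebf1 fell, at a median near 0 whose sign changed with the scaling. Of these, 5 rose and 3 fell without KO 5 and KO 6, and with library totals 10 rose and none fell. Abcg1, a sterol exporter strong in macrophages, went from 14.3 ± 1.9 to 35.4 ± 6.99 CPM (log2 1.31, SE 0.17, adjusted p = 0.000262), and Pltp, the phospholipid transfer protein, from 11.8 ± 3.4 to 37.6 ± 13.1 CPM.

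Bile acid genes fell at both steps. Of 14 synthesis genes 11 fell and none rose, and of 17 transport and control genes 8 fell and 2 rose (Abcc4 and Slc51b), at medians of -1.12 and -0.70. With library totals 5 synthesis genes fell and 1 rose, and 6 transport genes fell and 6 rose, the medians staying below 0 (-0.52 and -0.12). Slc10a1, the sodium-dependent importer, stood at 372, 556, 670.5 and 516 CPM in Het and 85.5, 48, 133 and 108 CPM in KO (5.64-fold lower, log2 -2.50, SE 0.31, adjusted p = 0.000223). Baat, which joins bile acids to taurine, went from 352 ± 92.1 to 134 ± 29.7 CPM, and Cyp2c70, which makes muricholic acids in mice, from 957 ± 232 to 369.6 ± 74.6 CPM. The exporter of the sinusoidal side Abcc4 stood at 4.03, 3.12, 3.44 and 2.91 CPM in Het and 15.3, 13, 23.9 and 12.8 CPM in KO and rose 4.81-fold (log2 2.27, SE 0.24, adjusted p = 8.68e-05). Cyp8b1 was not called, and Cyp7a1, the rate-limiting enzyme, lost its call with library totals (adjusted p = 0.116) and without KO 5 and KO 6 (adjusted p = 0.136).

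Lipid synthesis genes moved in both directions: 9 of 38 rose and 12 fell, with a median of -0.22 that became 0.34 with library totals. The share of rises was near the 21.4% among all genes, of which 19% fell. Cd36, a fatty acid importer, stood at 27.8, 32.5, 41.3 and 44.1 CPM in Het and 140.2, 168, 225 and 176 CPM in KO (4.87-fold higher, log2 2.28, SE 0.20, adjusted p = 2.86e-05). Fabp1, the main fatty acid binding protein of hepatocytes, stood at 4808, 3399, 3093 and 2916 CPM in Het and 517, 978, 650.2 and 852 CPM in KO (4.74-fold lower, log2 -2.25, SE 0.26, adjusted p = 0.000171). Fatty acid oxidation genes fell in 12 of 40 members and rose in 3 (Pdk4, Vnn1 and Crat), and with library totals 11 rose and 2 fell, the median going from -0.32 to 0.25.

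Among genes of drug metabolism, conjugating and hydrolysing enzymes fell in 21 of 36 members and rose in 5 (16 and 11 with library totals), and cytochrome P450s fell in 15 of 38 and rose in 5 (11 and 13 with library totals, the median going from -0.52 to 0.09). Sult2a8, a bile acid sulfotransferase, stood at 1423, 890.3, 942 and 851 CPM in Het and 79.3, 43.4, 36 and 50.4 CPM in KO (19.6-fold lower, log2 -4.29, SE 0.30, adjusted p = 7.66e-06). Cyp2c54 stood at 378, 436, 450.4 and 335 CPM in Het and 28.1, 11.6, 11.4 and 19.7 CPM in KO (22.6-fold lower, log2 -4.50, SE 0.32, adjusted p = 7.66e-06) and Cyp2c37 at 116, 129, 139 and 106 CPM in Het and 13.5, 7.78, 16.8 and 11.7 CPM in KO (9.79-fold lower, log2 -3.29, SE 0.22, adjusted p = 6.24e-06). Inmt, which methylates indole amines and selenium compounds, fell from 209 ± 67.3 to 11.1 ± 1.51 CPM (log2 -4.24, SE 0.24, adjusted p = 2.29e-06). Ces2e, a carboxylesterase, rose against this trend, at 120.4, 240.4, 216 and 166 CPM in Het and 888, 772, 799 and 955 CPM in KO (4.59-fold higher, log2 2.20, SE 0.22, adjusted p = 7.85e-05). The Cyp2c, Ces and Sult2a families hold close paralogs, among which reads can be split.

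NRF2 is the factor that cells use against oxidants and electrophiles. Of its 25 targets 13 rose and 3 fell (Gclm, Gclc and Taldo1), at a median of 0.83, and none fell with library totals, where Gclc stood at 0.00184 (adjusted p = 0.993) and Gclm at -0.0163 (adjusted p = 0.953) on the log2 scale. Gclc also lost its call without KO 5 and KO 6 (adjusted p = 0.0808). Srxn1, which repairs peroxiredoxins, stood at 40.6, 40.5, 30.4 and 31.5 CPM in Het and 119, 118, 109.7 and 93.1 CPM in KO (3.07-fold, log2 1.62, SE 0.15, adjusted p = 3.85e-05). Slc7a11, the cystine importer that feeds glutathione synthesis, stood at 0.209, 0, 0 and 0.106 CPM in Het and 3.12, 6.85, 4.26 and 5.86 CPM in KO, near 0 in the controls, and rose 58.6-fold (log2 5.87, SE 0.62, adjusted p = 9.51e-05), or 127-fold without Het 1. Glutathione transferases rose in 6 of 22 members and fell in 6 (12 and 1 with library totals). Gsta1 stood at 3.24, 2.8, 5.22 and 3.33 CPM in Het and 87.5, 103, 57.4 and 92.7 CPM in KO (23.3-fold, log2 4.54, SE 0.25, adjusted p = 1.9e-06), and Mgst2, a microsomal transferase, had no count in Het and 16, 18.8, 24.3 and 29.1 CPM in KO, at least 541-fold higher against a floor of 3 counts over the 4 Het libraries. The starts of Srxn1 and Slc7a11 are shown from 120 bases before to 30 after the RefSeq start (GRCm38.p6), 5′ to 3′, with the antioxidant response element core TGANNNNGC on either strand in capitals.
Srxn1: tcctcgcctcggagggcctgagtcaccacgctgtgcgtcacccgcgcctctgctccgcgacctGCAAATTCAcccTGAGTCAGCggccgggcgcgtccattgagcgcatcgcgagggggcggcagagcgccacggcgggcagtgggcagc
Slc7a11: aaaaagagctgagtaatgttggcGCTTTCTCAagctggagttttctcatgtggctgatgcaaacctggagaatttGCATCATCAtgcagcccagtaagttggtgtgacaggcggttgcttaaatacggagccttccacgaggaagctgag
Srxn1 (chr2:152105404-152105553, plus strand) held matches at -57 and -45 in this stretch and 1 more at -158, and Slc7a11 (chr3:50443584-50443733, minus strand) at -97 and -45. In the window of 280 bases 16 of 21 NRF2 targets with a promoter entry held a match, against 45.6% of the tested genes.

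Amino acid enzymes fell under TMM scaling. Of 36 catabolic enzymes 23 fell and none rose, at a median of -0.67. Of 24 genes of the methionine and urea cycles 14 fell and 1 rose, Mtr, at a median of -0.73. With library totals 9 catabolic enzymes fell and 4 rose, and 6 genes of the cycles fell and 4 rose, at medians of -0.09 and -0.15. Gnmt, which uses up S-adenosylmethionine, stood at 2261, 1901, 2083 and 1934 CPM in Het and 656, 470.4, 445 and 660.1 CPM in KO (3.67-fold lower, log2 -1.87, SE 0.20, adjusted p = 8.85e-05). Pemt, which spends S-adenosylmethionine on phosphatidylcholine, went from 294 ± 2.87 to 129.8 ± 13.9 CPM (log2 -1.18, SE 0.13, adjusted p = 0.000116), and Prodh, proline dehydrogenase, from 179 ± 13.6 to 77.3 ± 10.3 CPM. Glucose metabolism moved in both directions, with 8 of 32 higher and 9 lower (14 and 3 with library totals). Among all genes 21.4% rose and 19% fell (49.0% and 3.24% with library totals). Ppp1r3b, which brings phosphatase to glycogen, stood at 255, 266, 284 and 325 CPM in Het and 119, 69.9, 71.9 and 84 CPM in KO (3.28-fold lower, log2 -1.71, SE 0.19, adjusted p = 0.000126). Hk1, Hk2 and Pkm, isoenzymes that adult hepatocytes hardly use, rose, and Pkm went from 15.3 ± 2.86 to 48.4 ± 14.8 CPM. Pklr, the liver isoenzyme, lost its call with library totals (adjusted p = 0.687) and without KO 5 and KO 6 (adjusted p = 0.0762).

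Genes of endoplasmic reticulum and integrated stress moved in both directions: 7 of 35 rose and 9 fell (14 fell without Het 1). With library totals 17 rose and 3 fell. Both shares of rises were near those among all genes, 21.4% and 49.0%, of which 19% and 3.24% fell. With TMM the members that rose were Slc7a11, Asns, Sesn2, Atf3, Aldh18a1, Psat1 and Slc7a1. Those that fell were the endoplasmic reticulum genes Manf, Herpud1, Creld2, Dnajb9, Sdf2l1 and Xbp1, and also Atf4, Atf5 and Chac1. Asns, asparagine synthetase, a target of ATF4, stood at 36.7, 38.8, 34.7 and 67.1 CPM in Het and 182, 160.2, 120.2 and 200.5 CPM in KO (3.74-fold higher, log2 1.90, SE 0.24, adjusted p = 0.000264), with Het 4 the highest control. Heat shock and proteasome genes fell in 4 of 35 members and rose in 2, 2 fell without KO 4 or KO 6, none rose without KO 5 and KO 6, and with library totals 20 rose and 2 fell, the median going from -0.06 to 0.49. Hspb1, a small heat shock protein, went from 13.3 ± 4.29 to 3.21 ± 1.31 CPM and Hsph1, a large one, from 69.8 ± 23 to 27.2 ± 10.8 CPM. Lysosome and autophagy genes rose in 10 of 40 members (6 without KO 5 and KO 6) and fell in 2 (Map1lc3a and Atp6v0d1), a share of rises near the 21.4% among all genes. With library totals 31 rose, against 49.0% of all genes, and 1 fell. Of 23 iron genes Tfrc and Hmox1 rose and Tmprss6 and Ireb2 fell, a smaller share than among all genes in both directions. With library totals 9 rose and 1 fell, 1 rose without Het 1, and 1 fell without Het 4, without any 1 KO library, and without KO 5 and KO 6 together. Tfrc, the transferrin receptor, stood at 19, 21, 19.5 and 26.4 CPM in Het and 63.1, 58.1, 116 and 143 CPM in KO, and its log2 change was 1.5 in place of 2.15 without KO 5 and KO 6. Hepcidin (Hamp) was not called.

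Genes with a sex bias in mouse liver follow the pattern of growth hormone release. Of 24 male-biased genes 19 fell and none rose, and of 12 female-biased genes 6 rose and none fell. Without KO 5 and KO 6, the libraries with Xist RNA, 17 fell and 4 rose. Nudt7, a peroxisomal hydrolase, stood at 954, 785, 597 and 574 CPM in Het and 143, 118, 112 and 103 CPM in KO (6.11-fold lower, log2 -2.61, SE 0.21, adjusted p = 1.83e-05), and Ntrk2, the receptor of BDNF, at 0.889, 0.538, 0.333 and 0.423 CPM in Het and 33.8, 38.9, 26 and 31.1 CPM in KO (58.6-fold higher, log2 5.87, SE 0.27, adjusted p = 7.95e-07), and KO 5 and KO 6 held the lowest KO levels of both. The female-biased list as a whole was highest in those libraries, with a summed level of 51.3 to 90.8 CPM in Het and 969, 806, 3568 and 1951 CPM in KO. Ghr, the growth hormone receptor, stood at 1006, 852, 838 and 852 CPM in Het and 330.2, 219.7, 339 and 367 CPM in KO (2.82-fold lower, log2 -1.50, SE 0.19, adjusted p = 0.000248), and of 11 genes of the axis 4 fell and none rose, while with library totals 1 fell and 4 rose. Clock genes fell in 5 of 20 members (Hlf, Nfil3, Cry1 and Clock among them), beside 19% lower among all genes. Their median of -0.46 became 0.07 with library totals, and the core genes Arntl, Per1, Per2, Dbp and Nr1d1 were not called. Red cell, fat, pancreas and muscle genes had 8 of their members tested, of which Cela1 and Hbb-bt fell. The sum over all listed members, tested or not, overlapped between the groups (234 to 2040 CPM in Het, 260 to 881 CPM in KO).

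Several genes appeared only in the KO libraries. Spink1, a trypsin inhibitor, Myo7b, a myosin of microvilli, and Got1l1 had no count in any Het library. Their KO levels were 29.1, 39.3, 26.5 and 30.9 CPM, 19.4, 20.7, 22.2 and 24 CPM and 18.9, 13.9, 23.4 and 25.6 CPM in the order of the libraries, at least 762-fold, 533-fold and 515-fold above the floor of 3 counts over the 4 Het libraries. Tex19.1, known from the germ line and the placenta, was also at 0 in Het and stood at 16.7, 10.3, 127 and 57.7 CPM in KO, at least 1424-fold higher, most in KO 5 and KO 6, and at least 355-fold higher without them.

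**Figure D5:**
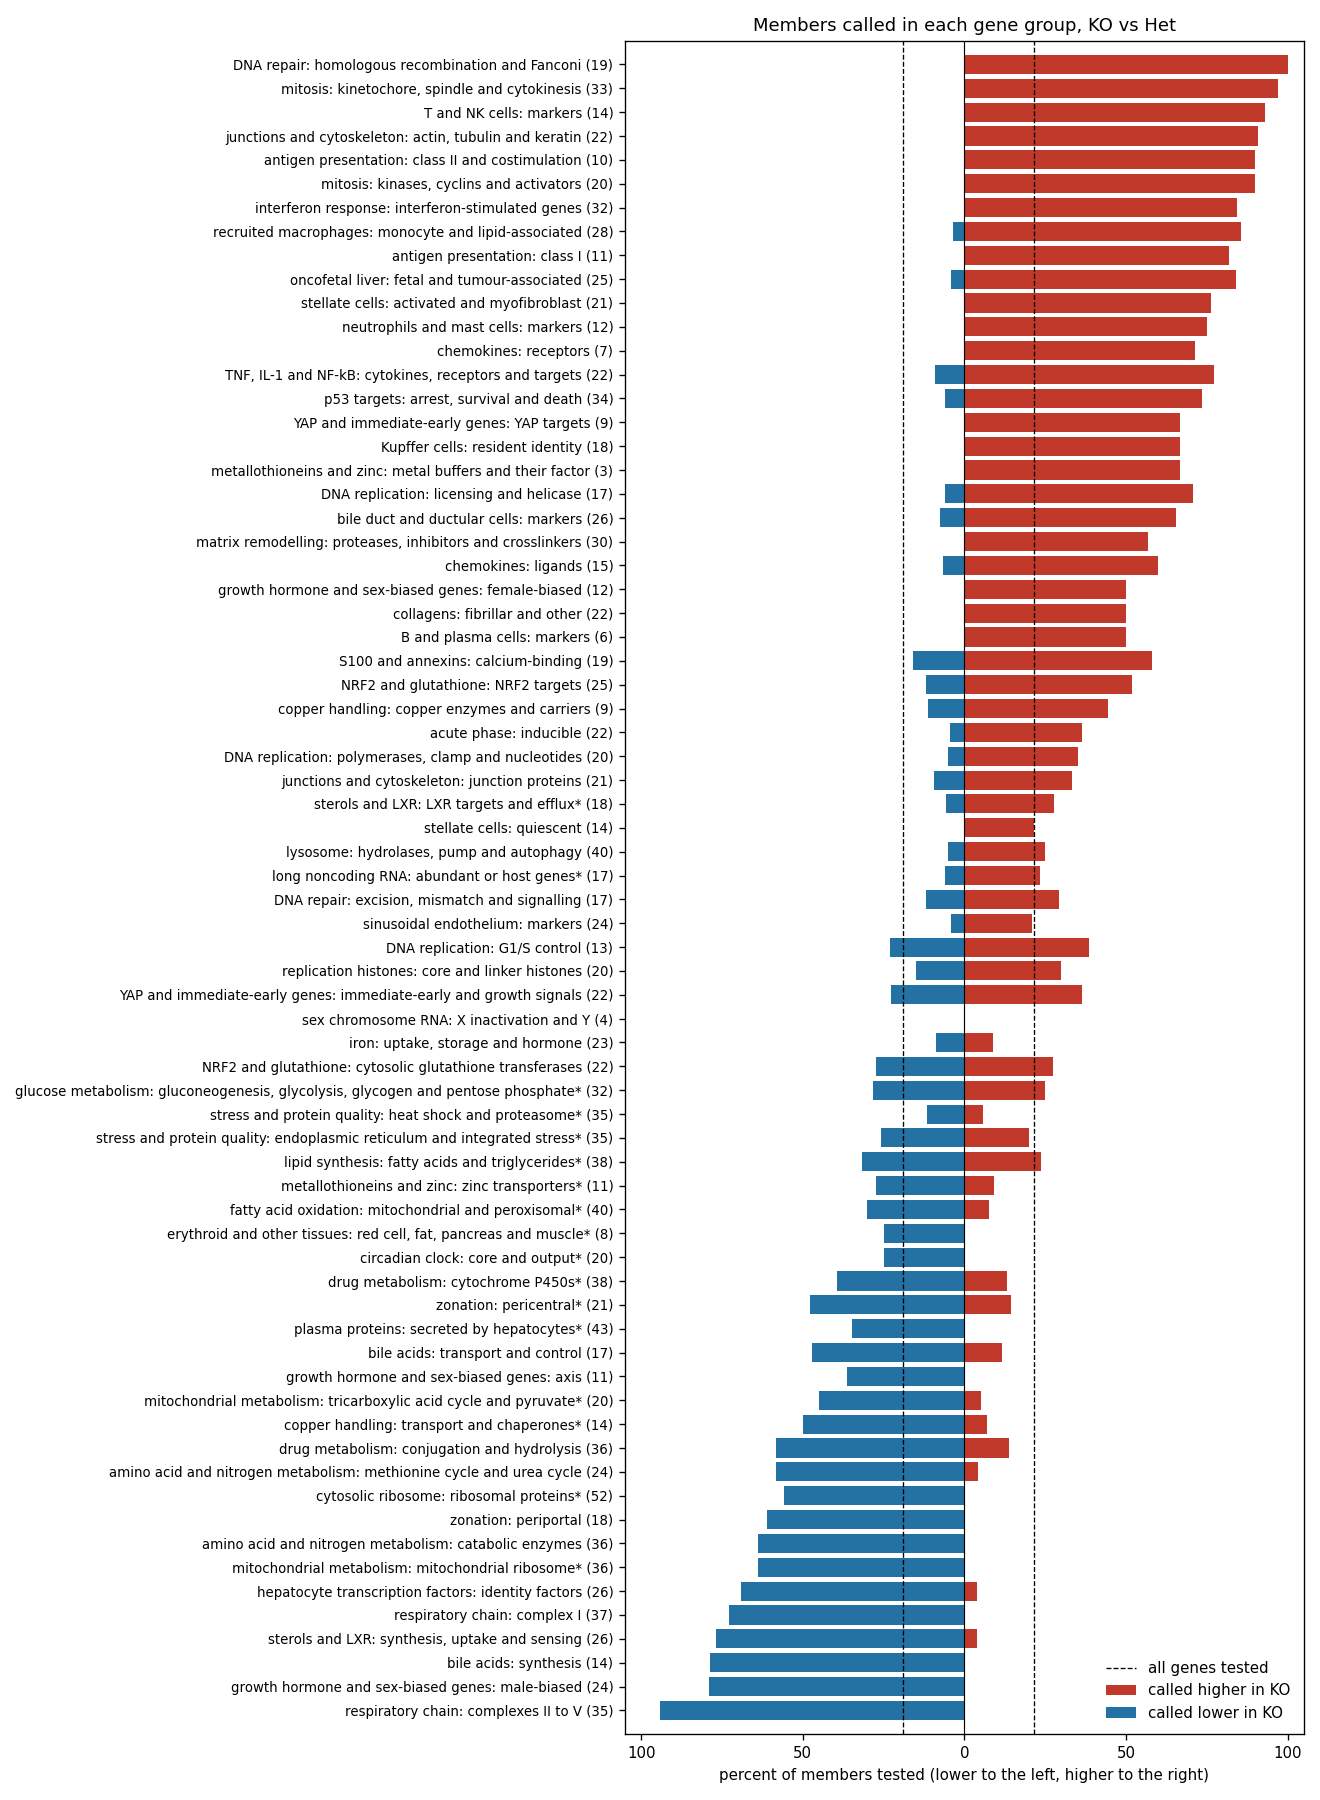
Percent of tested members called higher (right) and lower (left) in KO in each of 70 gene groups, with the number tested in parentheses and dashed lines at the percents among all 13366 genes, 21.4 and 19. Recombination, mitosis and T and NK cell genes stand at the top, and respiratory chain, male-biased and bile acid synthesis genes at the bottom. A star marks groups whose median change has the other sign with library totals. The median of all genes is 0.54 there, and the starred groups other than LXR targets and efflux stay below it.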

How the data were processed

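RNA from 8 livers, 4 Het and 4 KO, was compared, and the 4 agonist-fed libraries entered only 1 alternative fit. The deposited table gives read counts per gene, made by the authors with FastQC 0.11.7 and StringTie 2.1.3b on build mm10, per the submitters' processing notes. It also gives FPKM (fragments scaled to gene length and library), by the authors, used only in 1 alternative. Neither aligner nor annotation nor the use of strand is stated there, so reads of overlapping genes (49 of 181 named) and of near-identical paralogs are uncertain. The table also has 3 columns with no sample name, which were not used.

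Genes with 10 or more counts in at least 4 of the 8 libraries were tested with edgeR 4.0.16 (R 4.3.3, TMM factors, quasi-likelihood), the groups alone in the design, with Benjamini-Hochberg adjustment. The SE is the log2 change over the root of F. Totals limit precision, and p-values cover only the spread between libraries. Shares of counts were tested by exact two-sided permutation. There were 22 alternatives to the fit, with limma 3.58.1 and DESeq2 1.42.0 among them. Gene numbers matched RefSeq GRCm38.p6 for 13340 genes, and motifs were sought on both strands.

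The comparison, its members and the 48 gene lists (70 roles, 1547 genes) were chosen with earlier results of these data known. Named were Atp7b, Mt1, Mt2, Xist, Ddx3y, the 6 called rises and 6 falls with the largest CPM difference and with the largest log2 change (at 10 CPM or over, no overlap, no predicted name), defining markers of other cell types, and per role with 3 or more called members the 2 with the smallest adjusted p. A further 33 genes were singled out after their values were seen. Some genes that the rule names are not reported here. Gm2083 was added to the major urinary proteins after the first share was seen (21 genes without it took 11.7 ± 1.80% in Het and 1.55 ± 0.584% in KO). Trac was dropped after a wrong match by synonym. The promoter window and 2 of the 5 motifs (those of ISGF3 and of sterols) were set after list counts or the letters at Mt1 were seen.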

Additional observations from a re-analysis of the deposited data

Results flagged for a closer look

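In 29 of 382 groups of 4 libraries checked (7.59%), the highest or lowest library lay apart from the other 3, where chance gives about 1 in 20. The gap to the nearest other library, as a share of the range of the 4, passed Dixon's critical value. The causes were not tested. Het 1 was the highest of its group for Ghr (1006 CPM, next 852), Krt19 (1.78 CPM, next 0.667), Map1lc3a (52.1 CPM, next 42.3), Pemt (298 CPM, next 293), Sod1 (872 CPM, next 672) and Sult2a8 (1423 CPM, next 942). Het 1 was the lowest of its group for Cdh1 (16.6 CPM, next 30.8) and Cp (739 CPM, next 2098). Het 2 was the highest of its group for Cdk1 (3.07 CPM, next 1.06) and Mmp8 (0.108 CPM, next 0). Het 3 was the highest of its group for Cyp2a5 (328 CPM, next 111) and Il1rn (3.78 CPM, next 2.17). Het 4 was the highest of its group for Asns (67.1 CPM, next 38.8), Fanci (0.212 CPM, next 0), Gzmb (0.264 CPM, next 0), Lcn2 (29 CPM, next 5.38), Mt2 (122 CPM, next 19.6) and Pvt1 (2.06 CPM, next 1.44). KO 2 was the highest of its group for Mup11 (11 CPM, next 3.03) and Sult5a1 (11.3 CPM, next 4.57). KO 2 was the lowest of its group for Notum (4.23 CPM, next 7.32). KO 4 was the highest of its group for Epcam (6.06 CPM, next 2.68), Ezr (19.9 CPM, next 14.5) and Trem2 (0.839 CPM, next 0.382). KO 5 was the highest of its group for Top2a (48.6 CPM, next 34.9). KO 5 was the lowest of its group for Eda2r (27.6 CPM, next 44.3). Of the shares of counts, Het 2 was highest for the major urinary proteins (16.6%, next 12.5%), KO 4 for the ribosomal proteins (1.49%, next 1.05%) and Het 1 for the respiratory chain (1.57%, next 1.1%).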

How the results depend on the processing

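The count of 5394 called genes stayed within 1.5 times in all 22 alternatives (3609 to 7128), and no gene called both in the reported fit and in an alternative had opposite signs. The split did not. Called higher and lower were 6556 and 433 with library totals and 6705 and 423 with log2(FPKM + 1), and 2062 and 410 genes changed beyond 2-fold, against 1284. Beyond 2-fold there were 623 with 10 counts in all 8 libraries and 831 with voom sample weights. The upper quartile scaling gave 62.0% of calls higher. Without 1 library, 4458 to 5072 genes were called, 2442 to 2961 higher and 1776 to 2304 lower, 1037 to 1328 beyond 2-fold, and the Atp7b log2 change was -2.82 to -2.53. Without KO 5 and KO 6, 4501 were called, and the shares of major urinary proteins, metallothioneins and zinc genes and the 100 most abundant genes differed by -11.5, 0.324 and -14.0 points (exact permutation p = 0.0667, the smallest that 4 against 2 allows, so this p says nothing on stability). Only numbers 2 and 4 occur in both groups, and nothing in the labels says that they pair animals. With the number as a block, 3609 genes were called, 2130 higher and 1479 lower, and same-numbered libraries deviated together by correlations of 0.0603 and 0.0105. Without 1 library, the share difference was -1.55 to 0.448 points for plasma proteins (0.36 without Het 3, 0.0946 without Het 4) and -0.106 to 0.176 for ribosomal proteins (-0.0626, -0.0687 and -0.00951 without Het 2, Het 3 and Het 4). Single genes changed sign as follows, in log2: Acta2 -0.0208 with voom and -0.193 without KO 4 (0.656 without KO 6), Col18a1 0.233 with FPKM and 0.184 with totals, Gclc 0.0235 and 0.00184, Gclm 0.028 with FPKM, Sox9 -0.0145 with voom and -0.0676 without KO 2 (0.579 without Het 4), Krt19 -0.262 without KO 4 (1.19 without Het 1), and Trem2 0.0235 with FPKM, 0.558 with voom and 0.0287 with totals. Among the other values of single genes, 3828 kept direction and call, 80 lost and 9 gained a call. Of the counts of called genes in gene groups, 2708 stayed within 1.5 times and 372 moved further. The causes were not tested. Low counts limit genes under 1 CPM.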
